A study of Mus musculus with 36 samples.

Results

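Smooth muscle builds its contractile apparatus from a small set of proteins, and the genes of 10 of them were followed here through the embryonic mouse gut. The set was chosen by name: Myh11, Actg2, Acta2, Cnn1, Mylk, Tagln, Lmod1, Myocd, Smtn and Des, 10 of the 23847 gene entries in the deposited tables. The RNA came from guts dissected from C57BL/6J embryos labelled Ret null or wild type, of either sex, aged E10.5, E12.5 or E14.5 (embryonic days). With 3 libraries for each of 12 groups of age, label and sex there were 36, and every age had 6 libraries labelled Ret null and 6 of wild type. Ret is the receptor by which the neural crest cells of the future enteric nervous system sense the growth factor GDNF, and the labels do not name the null allele. Whether stomach or other organs stayed attached, whether embryos were pooled, and whether libraries stand for different embryos is not in the labels. The p-values therefore measure the spread between these libraries, which may be technical.

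In the embryonic gut, smooth muscle arises from mesoderm around the epithelial tube, and Hedgehog proteins secreted by the epithelium are among the signals known to direct it. Contraction starts when calcium and calmodulin activate myosin light chain kinase, the product of Mylk, which lets smooth muscle myosin (heavy chain Myh11) pull on filaments of the smooth muscle actins Actg2 and Acta2. Cnn1 (calponin), Tagln (transgelin) and Smtn (smoothelin) bind those actin filaments, Lmod1 (leiomodin) starts new ones, and Des (desmin) forms the intermediate filaments that hold the apparatus together in smooth, skeletal and heart muscle. Myocd (myocardin) is not contractile itself: it is the coactivator that, with serum response factor, turns on many of the others.

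Levels are given as FPKM as the authors deposited them, that is, fragments scaled for transcript length and for depth. Each of the 10 genes had 1 entry, and all 10 passed the filter on low values in every comparison. At E10.5 Lmod1 did so only through the libraries labelled Ret null. Every gene reached 1 FPKM in all 36 libraries except Myh11 (35), Myocd (35) and Lmod1 (30). On mm10 they lie at chr16:14194527-14291408 (Myh11), chr6:83512909-83536251 (Actg2), chr19:34240336-34255373 (Acta2), chr9:22099253-22109221 (Cnn1) and chr16:34784950-35002434 (Mylk). The others lie at chr9:45929628-45936058 (Tagln), chr1:135324813-135368065 (Lmod1), chr11:65176571-65269989 (Myocd), chr11:3517522-3539292 (Smtn) and chr1:75360344-75367715 (Des). Acta2 and Actg2 encode near-identical proteins, so reads from their coding exons could have been split between them, and Tagln overlaps the entry of Pcsk7 (5.72 to 8.64 FPKM) in libraries that were not stated to keep strand. In dissected guts, fewer muscle cells and less RNA per muscle cell cannot be told apart.

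Ret itself split the libraries labelled Ret null. It lay at 0.0111 to 0.0587 FPKM in 11 of them and at 4.74 to 6.49 FPKM in the other 7, against 2.11 to 13.3 FPKM in the 18 wild-type libraries. The 7 were the 3 E10.5 females, E12.5 male 2, and E14.5 females 1 and 3 and male 1. Sex genes went against the labelled sex in 4 libraries. In E10.5 female 3 and male 1 labelled Ret null, both Xist and the Y-linked gene Ddx3y were as in the other sex. E12.5 wild-type females 1 and 2 held Xist (49.1 and 52.2 FPKM) together with Ddx3y (4.91 and 4.98 FPKM). In E12.5 wild-type males Ddx3y had 11.1 to 14.2 FPKM. Differences within the limits set for sampling noise were found between females 1 and 2 of 3 groups (E10.5 labelled Ret null, wild type at E10.5, and wild type at E12.5) and between males 3 and 4 of E10.5 wild type, so each of these 4 pairs was counted as 1 sample, which left 32. Judged by the authors' intervals, libraries held about 5.94 M to 47.8 M fragments (M, mega). The E10.5 libraries held 8.09 M to 13.3 M where labelled Ret null and 8.32 M to 20.1 M in wild type.

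In wild-type gut the means of most of the 10 genes increased with age, but not together. Myh11 averaged 3.39 ± 2.67 FPKM at E10.5 (SD, n = 4), 28.8 ± 29.9 at E12.5 (n = 5) and 115 ± 33.8 at E14.5 (n = 6). Actg2, the actin typical of visceral muscle, averaged 20.03 ± 15.1, 88.4 ± 69.6 and 312 ± 92.5 FPKM at the same stages. Wild-type male 2 at E12.5 raised these means by over 1.5 times for Myh11, Actg2 and Cnn1, which without it averaged 15.5 ± 3.79, 57.5 ± 10.6 and 13.5 ± 2.32 FPKM (SD, n = 4). At E10.5, Myh11 stood at 2.94% of its E14.5 mean, Cnn1 at 6.29%, Actg2 at 6.43%, Lmod1 at 8.77% and Mylk at 11.5%. Acta2 had already reached 18.1%, Tagln 21.1%, Des 38.3%, Smtn 44.8% and Myocd 47.0%. The means of Myocd and Des did not increase at each step. That of Myocd at E12.5 was 174% of its E14.5 mean (149% without wild-type male 2), and that of Des was 27.4% at E12.5 (23.6% without it), below its E10.5 value. Without that library Tagln too was lower at E12.5 (19%) than at E10.5.

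**Figure D1:**
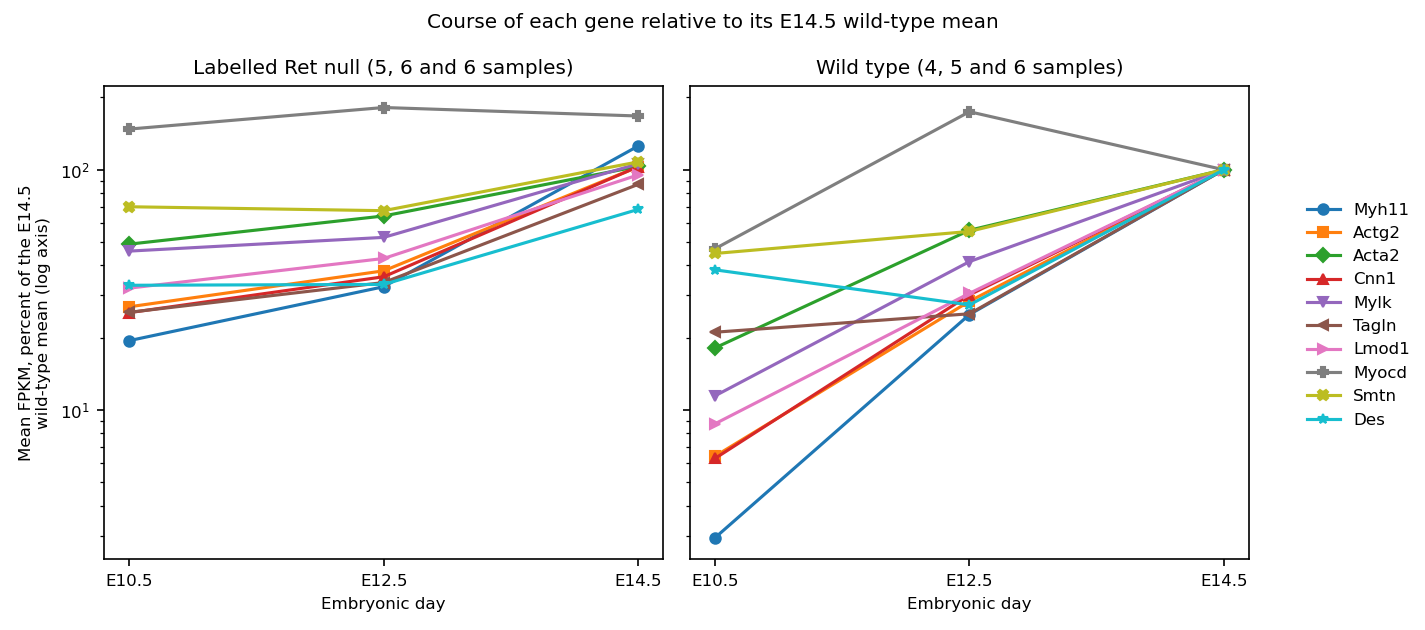
Mean FPKM of each gene as a percent of its own E14.5 wild-type mean (log axis) at the 3 stages, in samples labelled Ret null (left) and in wild type (right). In wild type the genes spread from 2.94% (Myh11) to 47.0% (Myocd) at E10.5, while in samples labelled Ret null the lowest was Myh11 at 19.4%.

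The ranking of the genes changed over the same days. At E10.5 the wild-type order by mean FPKM was Acta2, Tagln, Des, Actg2, Smtn, Mylk, Cnn1, Myh11, Myocd and Lmod1, and only Tagln and Des were neighbours whose ranges did not overlap. At E14.5 it was Acta2 (370 ± 91.0), Actg2 (312 ± 92.5), Tagln (220.03 ± 62.1), Myh11 (115 ± 33.8), Cnn1 (68.2 ± 15.2), Mylk (66.9 ± 12.7), Des (55.0 ± 7.90), Smtn (34.6 ± 6.94), Lmod1 (7.03 ± 2.75) and Myocd (6.65 ± 1.57; SD, n = 6), and only Smtn and Lmod1 were neighbours whose ranges did not overlap. Myh11 thus held rank 8 at E10.5 and rank 4 at E14.5, while Des held ranks 3 and 7.

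Between E10.5 and E12.5, 7 of the 10 genes rose in wild type and 1 fell at adjusted p under 0.05 (limma, over 14321 genes), where 2.75% of all genes tested rose and 1.82% fell. The log2 fold changes, taken on log2(FPKM + 1), were 2.48 for Myh11 (SE 0.412, adjusted p = 0.00111), 2.13 for Actg2, 1.84 for Cnn1, 1.72 for Mylk, 1.69 for Myocd, 1.44 for Acta2 and 0.90 for Lmod1. Des fell by 0.53 (SE 0.143, adjusted p = 0.0347), while Smtn (0.28, adjusted p = 0.207) and Tagln (0.15, adjusted p = 0.866) did not pass. The median over the 10 genes was 1.56, against 0.01 over all genes. The call on Des was lost without any one of E10.5 wild-type females 1 and 2, female 3, or males 3 and 4, or E12.5 females 1 and 2, female 3, male 1 or male 3 (adjusted p 0.0555 to 0.175). That on Lmod1 was lost without any one of E10.5 wild-type female 3, males 3 and 4 or male 5, or E12.5 females 1 and 2, female 3 or male 2 (adjusted p 0.0648 to 0.107).

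From E12.5 to E14.5 9 genes rose and Myocd fell in wild type, against 31% and 27.9% of all genes. The increases were 2.43 for Myh11, 2.08 for Actg2 and for Tagln, 1.95 for Cnn1, 1.88 for Des, 1.38 for Mylk, 1.35 for Lmod1, 1.07 for Acta2 and 0.83 for Smtn. Myocd fell by 0.64 (SE 0.195, adjusted p = 0.00716). The median of the 10 genes was 1.63, against 0.02 over all genes. Depth went with stage in these comparisons, with 8.32 M to 20.1 M fragments in E10.5 libraries, 26.8 M to 36.7 M in those of E12.5 and 5.94 M to 8.04 M in those of E14.5.

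**Figure D2:**
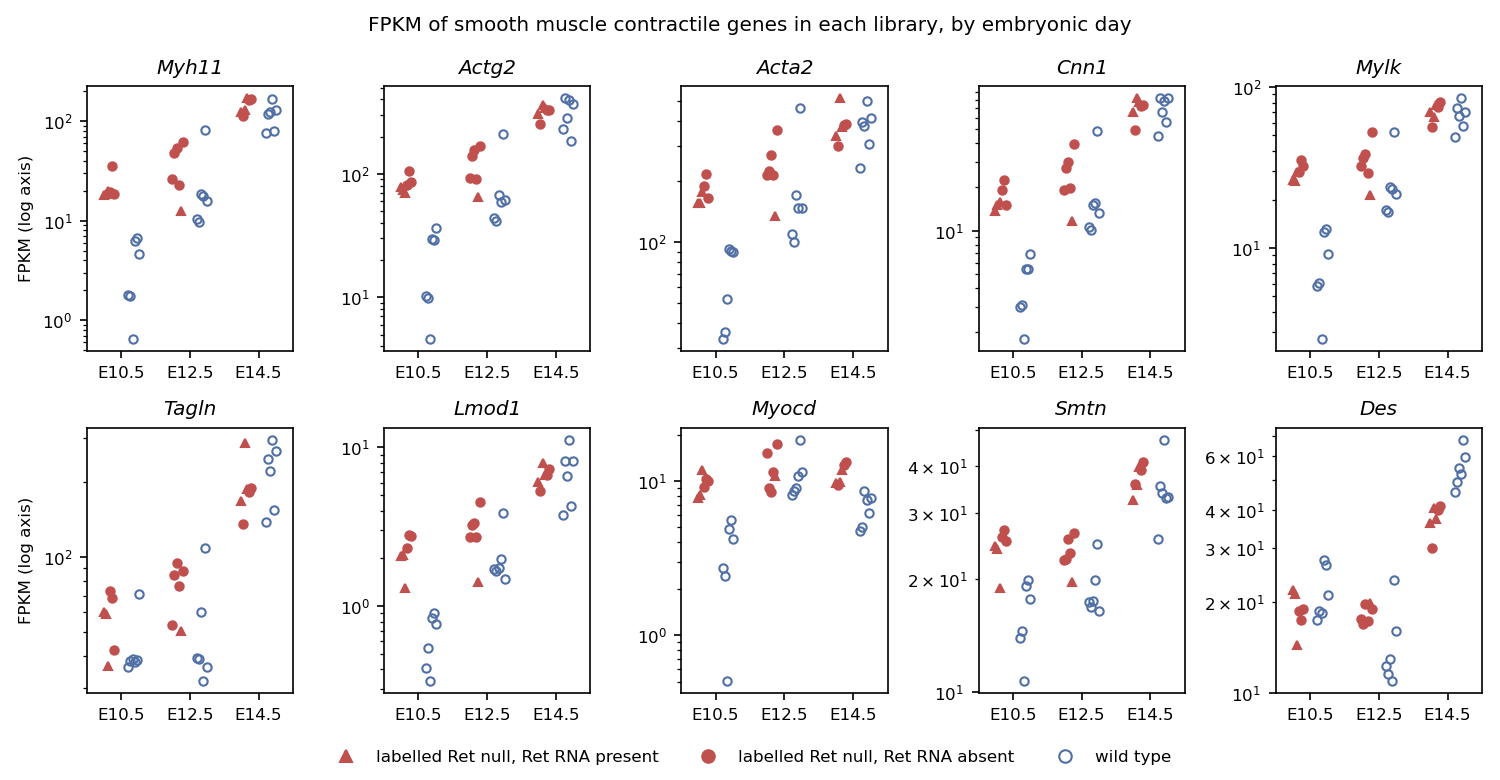
FPKM (log axis) of each of the 10 genes in every library at the 3 stages, with libraries labelled Ret null (filled, triangles where Ret RNA was present) left of wild type (open). At E10.5 the 6 libraries labelled Ret null lay above all 6 wild-type libraries for 7 genes (3.65% of all genes tested), while at E14.5 the groups were apart only for Myocd (higher, as were 4.82% of all genes) and Des (lower, as were 1.5%).

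At E10.5 the libraries labelled Ret null held more RNA of 8 of the 10 genes. Of the 13165 genes tested, 5.61% were called higher and 2.67% lower in that comparison, and of the 10 genes 8 were called higher and 0 lower. The 8 included Lmod1, which passed the filter only through libraries labelled Ret null. The median log2 fold change was 1.53 over the 10 genes and 0.01 over all genes. The values were largest for the myosin heavy chain and visceral actin. Myh11 had 18.3, 19.1 and 35.4 FPKM (lowest, median and highest) in libraries labelled Ret null, against 0.645, 3.24 and 6.67 FPKM in wild type. Actg2 had 70.0, 80.1 and 106 FPKM in libraries labelled Ret null, against 4.57, 19.7 and 36.1 FPKM in wild type. Acta2 had 156, 172 and 217 FPKM in libraries labelled Ret null, against 33.1, 71.1 and 92.6 FPKM in wild type. In all 3 genes the lowest library labelled Ret null lay above the highest of wild type. That held for 7 of the 10 genes and for 3.65% of all genes tested, and the opposite for 0 of the 10 and 2.34% of all. The log2 fold changes were 2.58 for Myh11 (SE 0.225, adjusted p = 0.00229), 2.34 for Actg2 (SE 0.191, adjusted p = 0.00179) and 1.5 for Acta2 (SE 0.127, adjusted p = 0.00218), with 5 samples labelled Ret null and 4 of wild type.

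Mylk, the kinase that switches the motor on, had 26.2, 29.6 and 35.3 FPKM in libraries labelled Ret null, against 2.71, 7.60 and 13.1 FPKM in wild type, which is 2.0 on the log2 scale (SE 0.182, adjusted p = 0.00246). Cnn1, which binds actin and damps the motor, had 13.6, 15.4 and 22.5 FPKM in libraries labelled Ret null, against 1.78, 4.24 and 6.91 FPKM in wild type (1.86, SE 0.148, adjusted p = 0.00179). Again no wild-type library reached the lowest one labelled Ret null. Lmod1 was scarce, with 1.30, 2.22 and 2.82 FPKM in libraries labelled Ret null, against 0.337, 0.658 and 0.912 FPKM in wild type (0.96, SE 0.117, adjusted p = 0.00540). No wild-type library reached 1 FPKM, so Lmod1 entered this fit only through the group where it was high. Its levels lay near the 1 added before taking logs, and its fitted value ran from 0.85 to 1.68 over 17 alternatives. Myocd, the regulator, had 7.80, 9.54 and 11.8 FPKM in libraries labelled Ret null, against 0.502, 3.46 and 5.56 FPKM in wild type (1.56, SE 0.238, adjusted p = 0.0126). For both genes the labels were apart. The call on Myocd was lost in 4 of 17 alternatives, whose adjusted p ran from 0.000898 to 0.192. These were leaving out wild-type male 5 (1.5, adjusted p = 0.0566), the libraries whose sex genes went against their label (1.46, adjusted p = 0.0679) or those labelled Ret null that held Ret (0.92, adjusted p = 0.192), and a block on sex and replicate number (1.41, adjusted p = 0.160).

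The other 3 genes differed less. Smtn had 18.9, 24.9 and 27.1 FPKM in libraries labelled Ret null, against 10.7, 16.1 and 19.9 FPKM in wild type, and 5 of the 6 libraries labelled Ret null exceeded every wild-type library (0.61, SE 0.0998, adjusted p = 0.0161). Without wild-type male 5 its adjusted p was 0.0663, in a range of 0.00072 to 0.115 over the alternatives. Tagln had 36.7, 59.9 and 72.9 FPKM in libraries labelled Ret null, against 36.2, 38.4 and 70.9 FPKM in wild type (0.24, adjusted p = 0.536). Des had 14.4, 18.7 and 21.9 FPKM in libraries labelled Ret null, against 17.4, 19.8 and 27.3 FPKM in wild type (-0.20, adjusted p = 0.304). For both genes the groups overlapped and the test was not passed, with 95% intervals of the log2 fold change of -0.30 to 0.79 for Tagln and -0.47 to 0.07 for Des.

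**Figure D3:**
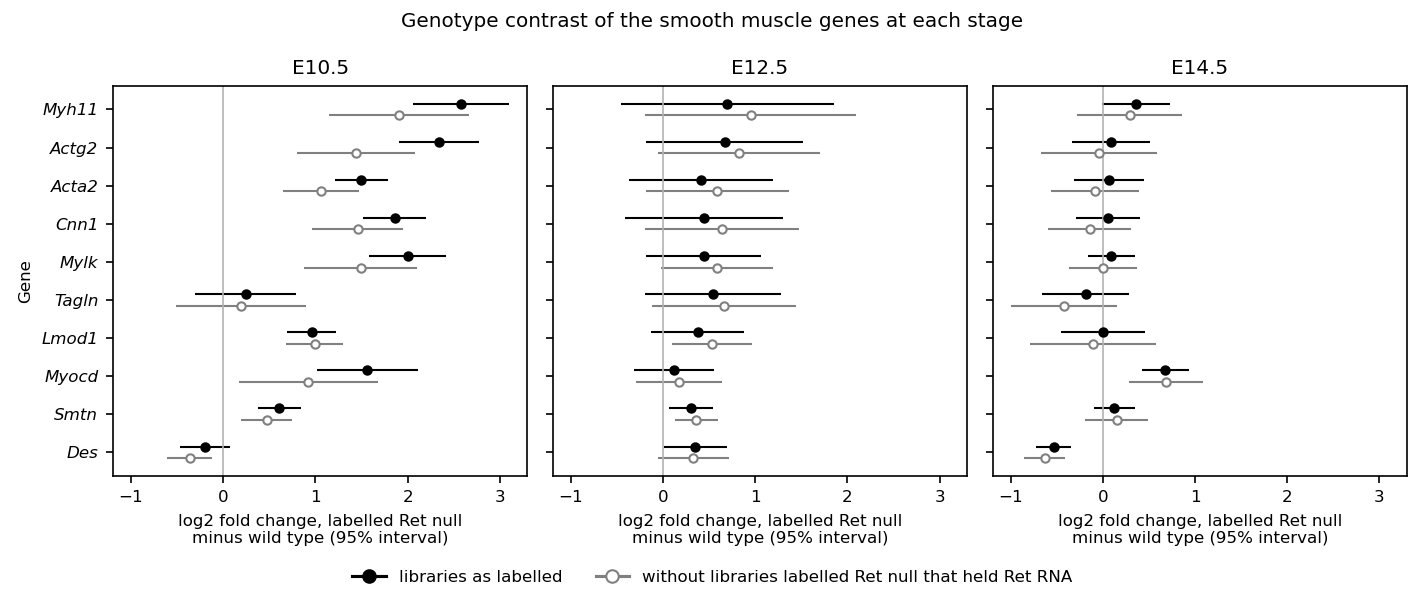
Log2 fold change of each gene between libraries labelled Ret null and wild type at each of the 3 stages with 95% intervals, with the libraries as labelled (filled) and without those labelled Ret null that held Ret RNA (open). The largest values were at E10.5, up to 2.58 for Myh11, and at E14.5 the intervals of Myocd (0.68) and Des (-0.53) lay clear of 0 in both fits.

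At E10.5 libraries labelled Ret null exceeded wild type with and without Ret RNA. The 3 females labelled Ret null held Ret at 4.74 to 5.76 FPKM and the 3 males at 0.0123 to 0.0509 FPKM, yet all 6 exceeded every wild-type library for Myh11, Actg2, Acta2, Cnn1, Mylk, Lmod1 and Myocd, the same 7 genes (3.65% of all genes tested). Between the Ret-holding females and the males without Ret the ranges overlapped for 7 of the 10 genes, and Actg2, Lmod1 and Smtn were higher in all 3 males. Of all genes tested 6.54% were higher in all 3 males, and 11% were apart in either direction. In the 3 females 0% of entries had an FPKM outside the authors' own interval, against 3.23% to 3.83% in the 3 males. In E10.5 wild type it was 3.27% to 8.53%, and whether the females' values were computed otherwise is not stated. Actg2 lay above its interval in all 3 males (male 3, 85.1 against 71.3 to 82.8 FPKM) and inside it in the females (female 1, 78.7 in 74.6 to 82.8). Leaving out the libraries that held Ret leaves only libraries labelled male, with a median of 1.03 over the 10 genes. Of these, male 1 labelled Ret null had the sex genes of a female (Xist 66.1 and Ddx3y 0 FPKM). Female 3, left out, had those of a male (0.911 and 13.5 FPKM). In that fit 2 of the 10 genes were called, Cnn1 (1.46, adjusted p = 0.0479) and Lmod1 (0.99, adjusted p = 0.0378), where 0.453% of 13037 genes were called higher and 0.069% lower. Lmod1 again passed the filter only through libraries labelled Ret null. Myh11 was then at 1.91 (adjusted p = 0.0614), Mylk at 1.49 (0.0651), Actg2 at 1.44 (0.0765), Acta2 at 1.06 (0.0590), Myocd at 0.92 (0.192) and Smtn at 0.47 (0.115). Over all 17 alternatives the adjusted p of Cnn1 ran from 1.05e-05 to 0.0479 and that of Lmod1 from 5.93e-05 to 0.0594.

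Within libraries labelled female the same comparison set 2 samples that held Ret against 2 of wild type. The former included female 3, whose sex genes were those of a male. Myh11 differed by 3.25, Actg2 by 3.24 and Mylk by 2.51, and 8 of the 10 genes were called higher, where 4.56% of all genes were called higher and 3.01% lower. Lmod1 and Smtn lost their calls without females 1 and 2 labelled Ret null or without wild-type female 3, and Smtn without male 1 or male 2 labelled Ret null. Within males, in the fit of all E10.5 libraries, 0 were called by limma, with 8 at an unadjusted p under 0.05, as were 17.5% of all genes tested. Over all genes 0.0987% were called higher and 0.0076% lower. The count called within males depended on which females shared the fit: leaving out females 1 and 2 or female 3 of those labelled Ret null gave 2, and leaving out females 1 and 2 or female 3 of wild type gave 5. The difference between the sexes was called by limma for 0 of the 10 genes and for 0% of all genes. At an unadjusted p under 0.05 there were 6 of the 10, all in the direction of a smaller value in males, and 18.7% of all genes tested. It was called for 3 without wild-type females 1 and 2. Wild-type libraries also differed by sex. For 9 of the 10 genes every E10.5 wild-type male exceeded every wild-type female, Tagln being the one that overlapped, and the same held for 24.3% of all genes tested. With each close pair counted as 1, these libraries made 2 samples of either sex. Myh11 had 4.69 to 6.67 FPKM in males and 0.645 to 1.78 in females, and Acta2 89.7 to 92.6 in males and 33.1 to 52.5 in females. Depth went with sex there, with 8.32 M to 9.20 M fragments in wild-type males and 15.5 M to 20.1 M in wild-type females.

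Other markers moved with label at E10.5, and their part in the muscle gene difference was not tested. Hba-x, an embryonic globin gene that is switched off as blood formation moves to the liver, had 372, 415 and 676 FPKM in libraries labelled Ret null, against 568.1, 1437 and 1566 FPKM in wild type (-1.36, SE 0.267, adjusted p = 0.0264). Hbb-bh1, another embryonic globin gene, was lower (-2.58), and Hba-a2, a globin gene of later blood, was higher (1.03). In wild type Hba-x had 147 to 806 FPKM at E12.5 and 12.1 to 209 at E14.5. The summed level of 7 stomach genes was 16.7, 105 and 140 FPKM in libraries labelled Ret null, against 2.98, 10.3 and 45.0 FPKM in wild type, with 3 of 5 tested genes called higher (Sfrp5 by 1.80). In E10.5 females 1 and 2 labelled Ret null that sum was 16.8 and 16.7 FPKM, below the 45.0 and 44.9 FPKM of wild-type females 1 and 2. Markers of interstitial cells of Cajal, the pacemaker cells of gut muscle, summed to 56.8 to 68.5 FPKM in libraries labelled Ret null and 33.2 to 58.2 FPKM in wild type (5 genes, 3 called higher and 1 lower). The sum of 8 markers of vascular mural cells, which also contract, was 59.8 to 90.7 FPKM in libraries labelled Ret null and 47.2 to 90.5 FPKM in wild type, and 2 of 7 were called higher (Kcnj8 by 1.71, Abcc9 by 0.76). The sum of 10 heart muscle markers was 13.1 to 40.7 FPKM in libraries labelled Ret null and 22.6 to 118 FPKM in wild type, with 0 of 7 called higher and 2 called lower. That of 10 skeletal muscle markers was 2.89 to 25.1 FPKM in libraries labelled Ret null and 7.09 to 78.9 FPKM in wild type, with Ckm under 0.1 FPKM in all 6 libraries labelled Ret null. Mesothelium markers summed to 58.55 to 68.03 FPKM in libraries labelled Ret null and 69.87 to 78.55 FPKM in wild type, without overlap. Kidney and gonad markers summed to 1.34 to 20.45 against 15.63 to 32.06 FPKM in wild type, and pancreas markers to 13.73 to 19.03 against 3.39 to 14.19 FPKM.

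Wider lists of muscle genes, chosen with earlier results of these data known, were tested in the same fit, where 5.61% of all genes were called higher and 2.67% lower. Of 22 tested genes for other contractile and cytoskeletal proteins of smooth muscle, 9 were called higher and 0 lower (median 0.21), among them the myosin light chain Myl9 (1.1), the actin-binding protein Nexn (0.70) and the PDZ and LIM domain proteins Pdlim3 (1.31) and Pdlim7 (0.41). Of 16 tested genes for contraction signalling and ion channels, 2 were called higher and 0 lower (median 0.20): the muscarinic receptor Chrm2 (1.42) and the guanylate cyclase subunit Gucy1b3 (1.03). Of 21 tested transcriptional regulators 8 were called higher and 0 lower (median 0.30), including Foxf2 (1.28), Klf5 (1.24), Klf4 (0.69) and Tead3 (0.52). Of 24 signals 7 were called higher and 1 lower (median 0.24), including the Hedgehog ligands Ihh (1.41) and Shh (1.21), which the epithelium secretes, and their target Gli1 (0.88). Without the libraries that held Ret, the counts called higher were 0, 0, 1 (Klf5, 1.32) and 2 (Ihh 1.47 and Shh 1.25), and 0 were called lower in each list. Without those libraries 4 of 5 tested stomach genes and 2 of 6 epithelial genes were called higher, and 0 of the mural, Cajal and heart markers. The sum of 6 epithelial markers was 140 to 226 FPKM in libraries labelled Ret null and 99.9 to 310 FPKM in wild type, with 3 of 6 called higher.

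At E12.5 the labels no longer separated the genes. By limma 0 of the 10 were called, with 2 at an unadjusted p under 0.05 (Smtn and Des, both higher). Of all 13182 genes 0% were called higher and 0.00759% lower, with 1115 (8.46%) at an unadjusted p under 0.05. Without the library labelled Ret null that held Ret, 0 of the 10 were called (0% of genes called higher, 0.259% lower), with a median of 0.59. The log2 fold changes were 0.70 for Myh11, 0.67 for Actg2, 0.54 for Tagln, 0.44 for Cnn1 and for Mylk, 0.42 for Acta2, 0.38 for Lmod1, 0.35 for Des, 0.30 for Smtn and 0.12 for Myocd, with a median of 0.43 against 0.01 over all genes. The 95% intervals were -0.46 to 1.85 for Myh11 and -0.37 to 1.20 for Acta2, which hold values of either sign, while those of Smtn (0.06 to 0.54) and Des (0.01 to 0.69) lay just above 0.

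One wild-type library stood apart. Wild-type male 2 exceeded every other E12.5 wild-type library for all 10 genes (19.7% of all genes tested) and every library labelled Ret null for 8 of them (11.9%). Its Myh11 was 81.9 FPKM against 9.68 to 18.5 in the other 5 wild-type libraries, and its Actg2 212 against 41.5 to 67.5. Its stomach gene sum was 2.78 FPKM against 100.5 to 211 FPKM in the other wild-type libraries, its Hba-x the lowest of the wild-type libraries at 147 FPKM. Stomach sums in libraries labelled Ret null were 13.0 (male 2), 16.2 (female 2), 17.9 (female 3), 97.3 (male 1), 139.6 (female 1) and 140.3 FPKM (male 3). In that order the sums of the 10 genes were 347, 613, 699, 511, 497 and 837 FPKM. Among the libraries labelled Ret null, male 2, the one that held Ret (6.12 FPKM), was lowest for Myh11 (12.6 FPKM), Actg2 (64.4), Acta2 (136), Cnn1 (11.7), Mylk (21.3), Tagln (50.4), Lmod1 (1.41) and Smtn (19.6), and for 14% of all genes tested. Without wild-type male 2, Des was higher in all 6 libraries labelled Ret null (16.9, 18.2 and 19.7 FPKM, against 10.9, 12.3 and 16.1 FPKM in the other wild-type libraries). Myh11, Actg2, Acta2, Cnn1, Mylk, Lmod1 and Smtn were higher in 5 of the 6. Of all genes tested 1.78% were higher in all 6 than in those 5 wild-type libraries, and 5.25% in at least 5. The fitted values were then 1.07 for Myh11, 0.97 for Actg2 and 0.48 for Des, and still 0 genes were called (adjusted p 0.291 to 0.645, against 0.564 to 0.856 with it).

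By E14.5 only 2 of the 10 genes separated the labels. Myocd was higher and Des lower in libraries labelled Ret null, 1 gene called in each direction, where 10.9% of 13861 genes were called higher and 4.84% lower. Myocd had 9.46, 10.8 and 13.3 FPKM in libraries labelled Ret null, against 4.74, 6.87 and 8.58 FPKM in wild type, which is 0.68 on the log2 scale (SE 0.117, adjusted p = 0.0108). Des had 30.0, 38.6 and 41.3 FPKM in libraries labelled Ret null, against 45.7, 53.5 and 67.8 FPKM in wild type, which is -0.53 on that scale (SE 0.0854, adjusted p = 0.00958). For both genes the 6 libraries of one label lay clear of the 6 of the other, as they did upwards for 4.82% and downwards for 1.5% of all genes tested. Both kept their calls without the libraries that held Ret, Myocd at 0.69 (adjusted p = 0.0496) and Des at -0.63 (adjusted p = 0.0162), where 3.96% of 13729 genes were called higher and 4.65% lower. Over 19 alternatives the adjusted p ran from 0.00143 to 0.0623 for Myocd and from 0.00257 to 0.0538 for Des. Within one sex 0 of the 10 genes were called by limma, against 0.289% of all genes called higher and 0.339% lower in females and 0.00721% each way in males. At an unadjusted p under 0.05 there were 1 higher and 1 lower of the 10 in females, where 20.4% of all genes reached it, and likewise in males, where 24.1% did. Des was called within females, and both genes within males, when female 3 labelled Ret null was left out. Myocd was called within either sex when wild-type female 3 was left out.

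The remaining 8 genes did not pass. Myh11 had 112, 145 and 171 FPKM in libraries labelled Ret null, against 75.6, 121 and 166 FPKM in wild type (0.36, 95% interval -0.01 to 0.73, adjusted p = 0.151). The others lay between -0.19 (Tagln) and 0.12 (Smtn), with intervals that reached at most 0.51 (Actg2) upwards and -0.66 (Tagln) downwards. The median over the 10 genes was 0.08, against 0.04 over all genes. The 3 libraries labelled Ret null that held Ret and the 3 that did not overlapped for all 10 genes, while 15.1% of all genes tested were apart. Myocd had 9.65 to 11.8 FPKM with Ret and 9.46 to 13.3 FPKM without, and Des 36.1 to 40.7 FPKM with Ret and 30.0 to 41.3 FPKM without.

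Des is also made in skeletal and heart muscle, whose markers were uneven at E14.5. Of 10 skeletal muscle markers the sum was 2.59, 6.95 and 27.2 FPKM in libraries labelled Ret null, against 4.69, 59.6 and 147 FPKM in wild type. Of 10 heart muscle markers it was 25.4, 36.3 and 62.5 FPKM in libraries labelled Ret null, against 36.8, 88.2 and 2720 FPKM in wild type. No gene of either list passed the test at E14.5 (0 of 7 and 0 of 8). Wild-type male 2, with the heart sum of 2720 FPKM and a skeletal sum of 65.9 FPKM, had the highest Des at that stage, 67.8 FPKM. Wild-type female 2 had a skeletal sum of 4.69 FPKM and a heart sum of 36.8 FPKM, within the range of the libraries labelled Ret null, and its Des was 49.5 FPKM, above all 6 of them. Markers of vascular mural cells, where Myocd is also active, summed to 80.1 to 104 FPKM in libraries labelled Ret null and 74.6 to 95.2 FPKM in wild type, with 2 of 7 called higher (Kcnj8 by 0.44, Abcc9 by 0.41). Markers of interstitial cells of Cajal summed to 52.0 to 72.6 FPKM in libraries labelled Ret null and 43.2 to 54.7 FPKM in wild type, with 3 of 5 called higher. Of pancreas markers 3 of 6 were called lower, with sums of 96.9 to 303 FPKM in libraries labelled Ret null and 183 to 1847 FPKM in wild type, and of erythroid entries 5 of 9 were called lower. Stomach genes summed to 146 to 196 FPKM in libraries labelled Ret null and 10.8 to 316 FPKM in wild type. The part of these markers in the values of Des and Myocd was not tested.

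Among the wider lists at E14.5, to be read against the 10.9% of all genes called higher and 4.84% lower, 6 of 20 signalling and channel genes were called higher and 0 lower (median 0.22), including Chrm2 (0.64), the cGMP kinase Prkg1 (0.55) and the cGMP phosphodiesterase Pde5a (0.51). Of 21 regulators 6 were higher and 1 lower (median 0.25), including Foxf1 (0.56), Foxp1 (0.51) and the myocardin relative Mkl2 (0.39). Of 25 other contractile and cytoskeletal genes 4 were higher and 2 lower (median -0.01), the higher ones being Synpo2 (0.58), Itga8 (0.44), Cald1 (0.33) and Flna (0.31). Of 24 signals 9 were higher and 0 lower (median 0.24), including Gli3 (0.63) and Shh (0.61).

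**Figure D4:**
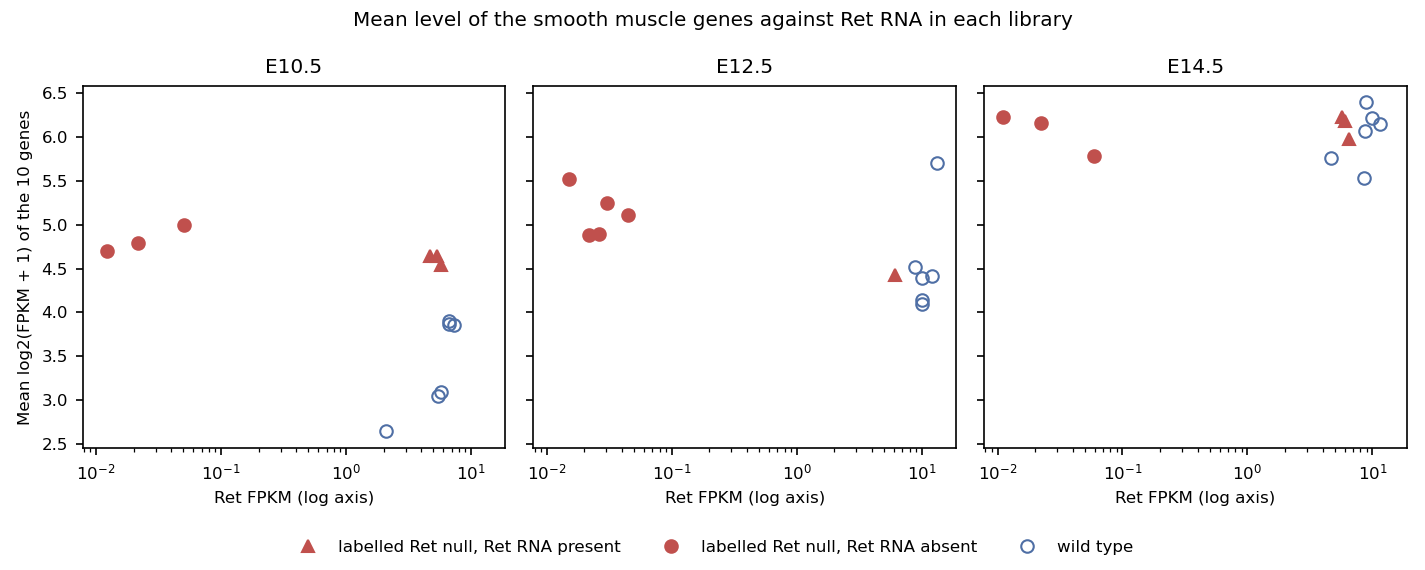
Mean log2(FPKM + 1) of the 10 genes against Ret FPKM (log axis) in every library, by stage, for libraries labelled Ret null with (triangles) and without (filled circles) Ret RNA and for wild type (open circles). At E10.5 both kinds of library labelled Ret null lay at 4.54 to 5.0, above the wild-type range of 2.65 to 3.90, and at E14.5 all ranges overlapped.

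Set beside wild type, the course in libraries labelled Ret null held no call over the first interval. From E10.5 to E12.5, 0 of the 10 genes were called by limma and 0 reached an unadjusted p under 0.05, as 19.2% of all genes did, where 0.88% of all genes rose and 2.48% fell. Myh11 averaged 22.4 ± 7.31 FPKM at E10.5 (SD, n = 5), 37.6 ± 19.7 at E12.5 (n = 6) and 145 ± 25.4 at E14.5 (n = 6). Myocd averaged 9.82 ± 1.41, 12.1 ± 3.56 and 11.1 ± 1.71 FPKM at these stages. From E12.5 to E14.5 9 genes rose, with Myocd the exception (-0.08, adjusted p = 0.774), where 23.2% of all genes rose and 11.8% fell. The rise of Acta2 (0.72, adjusted p = 0.0279) lost its call without E12.5 female 1, E12.5 male 2 or E14.5 female 3 (adjusted p 0.0569 to 0.0988, and 0.00622 to 0.404 over 40 alternatives). Without the libraries labelled Ret null that held Ret, 6 genes rose, and Acta2 (0.40, adjusted p = 0.404), Tagln (1.0, adjusted p = 0.0541) and Lmod1 (0.72, adjusted p = 0.0510) were not called. The difference between the courses was called for Mylk (-1.56, SE 0.325, adjusted p = 0.0162) and Myocd (-1.45, SE 0.290, adjusted p = 0.0140) over the first interval, where 0.545% of all genes were called higher and 0.796% lower. Neither held without the libraries labelled Ret null that held Ret (Mylk -1.11, adjusted p = 0.656; Myocd -0.82, adjusted p = 0.704), the highest adjusted p of each over 40 alternatives, the lowest being 0.00263 for Mylk and 0.000713 for Myocd. Both were also lost without E10.5 female 3 labelled Ret null alone (adjusted p = 0.0617 and 0.0623), and Mylk without E10.5 wild-type female 3, E10.5 wild-type male 5 or E12.5 wild-type female 3 (adjusted p 0.0559 to 0.0680). Without E12.5 male 3 labelled Ret null, Myh11, Actg2 and Cnn1 were called as well, 5 genes in all, and without E12.5 wild-type male 2 Des was called higher (0.68). Actg2 was also called without any one of E10.5 wild-type females 1 and 2, E12.5 wild-type male 1 or male 3, or E14.5 wild-type male 2. Over the second interval it was called for Des (-0.88, SE 0.178, adjusted p = 0.00416), where 11.2% of all genes were called higher and 6.19% lower. Des rose by 0.99 in samples labelled Ret null and by 1.88 in wild type, and this call held in all 40 alternatives (adjusted p 0.000892 to 0.0156). Tagln was called as well without E12.5 wild-type male 2 (-1.01, adjusted p = 0.0478).

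Across all 32 samples 7 of the genes moved closely together. The correlation of a gene with the mean of the other 9 was 0.945 to 0.990 for Myh11, Actg2, Acta2, Cnn1, Mylk, Lmod1 and Smtn, 0.867 for Tagln, 0.675 for Des and 0.454 for Myocd, in samples that also share stages and depths. Within stages Myocd went with the others at E10.5 (0.938, 9 samples) and less at E12.5 (0.572, 11 samples) and E14.5 (0.281, 12 samples). Each stage held samples of both labels. At E10.5 the labels differed for Myocd and most of the others, so the correlations there cannot be told apart from that difference. Des stood apart at E10.5 (-0.14) and E14.5 (-0.10), and Tagln was looser at E10.5 (0.483). Outside the set, the genes whose level across the 32 samples was most like the mean of the 10 were Myl9 (Pearson r 0.987), Tgfb1i1 (0.974), Pamr1 (0.965), Mgll (0.963), Adamts8 (0.959), Neurl1b (0.958), Sec24d (0.953), Arsi (0.952), Asb2 (0.951) and Sparcl1 (0.950). Myl9, the regulatory light chain that the Mylk kinase phosphorylates, averaged 189 FPKM in E10.5 samples labelled Ret null and 90.9 FPKM in E10.5 wild type, and 435 FPKM in E14.5 wild type.

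Since many of these genes are known targets of serum response factor and myocardin, the 250 bases before the start of each gene were read from RefSeq's table for GRCm38.p6, which held windows for 6 of the 10 (Acta2, Cnn1, Des, Lmod1, Mylk and Smtn). The CArG box, the site of serum response factor, is 2 C, 6 bases that are A or T, and 2 G. It was in 0 of the 6 windows and in 1.47% of the 32851 windows in the table. With 1 mismatch allowed, a search added after that result, it was in Acta2 and Lmod1, 2 of 6, and in 18.6% of all windows. The letters CATTCC, known to be bound by TEAD factors, were on either strand in Acta2, Lmod1, Mylk and Smtn, 4 of 6, and in 12.6% of all windows. A match is a description of letters and not a site shown to be used. Cnn1 and Mylk, like Acta2 and Lmod1, rose through all stages of wild type and differed by label at E10.5, and their windows held 0 near matches. The windows of Acta2 and Lmod1 are shown as those with near matches, and that of Des as one without. They run 5′ to 3′ on the gene's own strand and end at the base before the start that RefSeq gives, which for Des is not the start of the deposited entry, with the near matches to the CArG box in capitals, which lie 84 to 75 and 34 to 25 bases before the start of Acta2 and 189 to 180 and 164 to 155 before that of Lmod1. Acta2 is on the minus strand at chr19:34255374-34255623, Lmod1 on the plus strand at chr1:135324563-135324812 and Des on the plus strand at chr1:75360042-75360291.
Acta2: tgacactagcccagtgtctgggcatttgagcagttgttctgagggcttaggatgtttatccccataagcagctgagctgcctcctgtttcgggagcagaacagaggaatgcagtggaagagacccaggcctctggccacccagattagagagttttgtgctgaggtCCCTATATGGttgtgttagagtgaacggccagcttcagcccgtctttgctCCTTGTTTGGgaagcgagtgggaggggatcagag
Lmod1: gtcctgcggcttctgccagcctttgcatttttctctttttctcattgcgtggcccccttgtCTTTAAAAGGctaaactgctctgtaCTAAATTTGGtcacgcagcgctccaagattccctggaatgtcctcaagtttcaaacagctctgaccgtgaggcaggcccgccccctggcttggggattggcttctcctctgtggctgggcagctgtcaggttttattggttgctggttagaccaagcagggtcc
Des: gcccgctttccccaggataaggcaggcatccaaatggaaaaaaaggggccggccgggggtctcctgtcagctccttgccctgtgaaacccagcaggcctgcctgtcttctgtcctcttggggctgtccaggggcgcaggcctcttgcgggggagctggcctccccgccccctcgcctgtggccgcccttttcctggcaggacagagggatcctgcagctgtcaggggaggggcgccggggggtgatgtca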

How the data were processed

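Guts of mouse embryos were profiled by RNA sequencing: per the labels, mRNA was selected with oligo dT beads and TruSeq libraries were made, and per the submitters' processing notes the tools were Cufflinks, Cuffdiff, TopHat2 and Picard, on mm10. The sources used here give no versions, settings or scaling between libraries. Deposited tables hold 1 FPKM value per gene entry and library with an interval, per the file headers, summing to 404022 to 497295 per library. Depth is not given as a count: fragment numbers were computed here from the width of those intervals, taken to cover counting error only. What the intervals cover is not stated, so the fragment numbers and the counting noise used to compare libraries are approximate.

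The 10 genes, the lists, the marker lists and the tests were chosen with earlier results of these data known. A gene entered a fit when 3 or more of its samples reached 1 FPKM, and was tested with limma 3.58.1 (R 4.3.3; eBayes with trend, two-sided) on log2(FPKM + 1), with Benjamini-Hochberg adjustment over all genes tested. Each stage was fitted alone with the mean of each group of label and sex, and the contrast between labels was taken as the mean over both sexes; stages were compared in a fit of all 12 groups. Of 36 pairs of libraries within groups, 4 had a spread of at most 1.1 times the counting noise with at most 1% of genes beyond 3 SD (0.906 to 1.09 times and 0.342 to 0.740%, against 1.05 to 3.33 times and 1.6 to 38.7% in the others), and each was averaged. Named genes outside the 10 are Ret, up to 4 per list and comparison with the smallest adjusted p among those called, the 10 most correlated genes and marker genes that moved with a group. Alternatives were a pseudocount of 0.1, no filter, upper-quartile scaling, no trend, every library counted, a block on sex and replicate number, and leaving out samples. The test was checked on simulated data. Python 3.11.15 was used for tables and figures.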

Additional observations from a re-analysis of the deposited data

Results flagged for a closer look

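In 60 groups of 4 to 6 samples, 9 samples stood apart from the rest of their group by Dixon's criterion, which chance meets in about 1 group in 20. Of these, 6 were a single library, E12.5 wild-type male 2: Acta2 at 463.3 FPKM (others 105 to 171), Actg2 at 211.7 (42.6 to 67.5), Cnn1 at 48.62 (10.4 to 15.5), Lmod1 at 3.861 (1.48 to 1.97), Myh11 at 81.92 (10.1 to 18.5) and Mylk at 52.84 (17.1 to 24.0). The other 3 were Myh11 in E10.5 male 2 labelled Ret null (35.43 FPKM, others 18.5 to 20.1), Tagln in E14.5 female 3 labelled Ret null (285.4 FPKM, others 136 to 188) and Tagln in E10.5 wild-type male 5 (70.87 FPKM, others 37.2 to 39.2). Between the labels, the change over time differed by limma in 3 cases: Myocd (-1.447) and Mylk (-1.563) from E10.5 to E12.5, and Des (-0.8835) from E12.5 to E14.5, on the log2 scale. The E10.5 libraries labelled Ret null behind the first of these held Ret RNA in 3 of 6 cases.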

How the results depend on the processing

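No called value changed sign under any alternative, and all but 38 of the 916 recomputed counts of the 10 genes kept within the limit of 1.5 times. Most of those counts were 0 in the report, and a 0 that stayed 0 was taken as kept, so that share says little about the counts above 0. With the numbers as in the report first, the count higher at E10.5 (8) was 5 with a replicate block and 2 without the libraries labelled Ret null that held Ret. In E10.5 females (8) it was 0 without the libraries whose sex genes went against their label. In E10.5 males (0) it was 7 with every library counted and 2 without the Ret-holding libraries, and the E10.5 difference between the sexes (0 lower) was 3 lower with every library counted. At E14.5 the 1 higher and 1 lower gene became 0 and 0 with the replicate block. The 1 gene that fell in wild type from E10.5 to E12.5 became 0 with no filter and without the libraries whose sex genes went against their label. The 2 genes whose course differed by label over that interval became 5 with every library counted, 1 with the replicate block, and 0 without the Ret-holding libraries or those whose sex genes went against their label.

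Leaving out 1 sample at a time gave 6 to 8 genes higher at E10.5, 6 to 8 in females, 0 to 5 in males and 0 to 3 lower between the sexes; at E14.5 0 to 1 higher and 0 to 1 lower in females and in males; 6 to 7 higher and 0 to 1 lower in wild type from E10.5 to E12.5; and 0 to 1 higher and 0 to 5 lower in the difference by label over that interval, and 1 to 2 lower over the next. The rises from E12.5 to E14.5 in samples labelled Ret null numbered 8 to 9. Same-numbered libraries did not deviate together (16 pairs, r -0.289 to 0.33, 4 above 0.1), and 6 libraries labelled Ret null correlated best with their own number, so the block pairs libraries by number only. Without Ret-holding libraries the comparison within E10.5 females could not be fitted. Depth limits Lmod1 at E10.5 most of the 10 genes: the authors' interval spanned 17 to 29.4% of its value to either side, against 2.46 to 5.08% for Acta2.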
